A study of Mus musculus with 6 samples.

Results

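The 39 Hox genes of the mouse were followed in cultured lung mesenchymal stromal cells (LMSCs), as the rows named Hoxa, Hoxb, Hoxc or Hoxd with a paralogue number among the 34745 genes of an RNA-seq table. Of these, 11 lie in the Hoxa cluster, 10 in Hoxb, 9 in Hoxc and 9 in Hoxd, and together they fill 13 paralogue groups. The cells came from MMTV-PyMT mice (strain FVB), in which the mammary tumor virus promoter drives the polyoma middle T oncogene in mammary epithelium and the tumors spread to the lung. Lungs were digested, adherent cells were grown, CD45-negative cells were kept with magnetic beads, and RNA was taken at passage 3. A-LMSCs came from mice at the adenoma stage (6 to 7 weeks in the labels), PM-LMSCs from the pre-metastatic stage (9 to 10 weeks) and M-LMSCs from the metastatic stage (13 to 14 weeks), with 2 libraries each. Every group carried the transgene, so stage and age cannot be told apart. The labels give only a number to each library, and p-values measure the spread between these libraries.

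Hox genes encode homeodomain transcription factors that give cells of the embryo their place along the head-to-tail axis. The genes of a cluster stand on the chromosome in the order in which they are used along that axis, from group 1 in the hindbrain to group 13 in the tail, hindgut and digits. Fibroblasts of adult organs keep a Hox pattern of their place of origin in culture, and genes of the middle groups, with Hoxa5 and Hoxb5 among them, are needed in the mesenchyme of the developing lung.

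Values are FPKM (fragments scaled by the length of the gene and the size of the library), which allows levels to be compared between genes, and paired values of a stage stand in the order of replicate 1 and replicate 2. The spacing of the low values put the depth of the libraries between about 14780000 and 20850000 fragments. The Hox genes were read by few fragments in many cases, and the estimated numbers below carry counting error only. For the tested Hox genes the median absolute difference between the libraries of a stage was 0.18 in A-LMSCs, 0.15 in PM-LMSCs and 0.12 in M-LMSCs on the log2 scale. The matching medians over all tested genes were 0.10, 0.18 and 0.20.

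The stromal label was borne out by 11 of 11 fibroblast or stromal markers above the test's floor of 1 FPKM, whose sum lay between 2086 and 3231 FPKM per library. The sum of the 6 smooth muscle and pericyte markers, most of it Acta2, moved with stage. It was 6915 and 6822 FPKM in A-LMSCs, 6239 and 6479 in PM-LMSCs and 5729 and 5556 in M-LMSCs. The sum does not speak for each member. Against A-LMSCs, 3 of the 5 tested members were higher and 2 lower in PM-LMSCs, and 2 were higher and 3 lower in M-LMSCs. Des was among the higher ones in both, and Acta2 among the lower ones. Other lists moved as well. The 7 mesothelial markers summed to 124 and 182 FPKM in A-LMSCs, 303 and 420 in PM-LMSCs and 205 and 501 in M-LMSCs. Within that list Krt19 went the other way, with 13.8 and 17.3 FPKM in A-LMSCs, 8.09 and 9.28 in PM-LMSCs and 4.92 and 4.49 in M-LMSCs, and was the only marker of all lists to pass the test (log2 fold change of -1.53 for M-LMSCs against A-LMSCs, adjusted p = 0.0395 in limma, and 0.00955 to 0.267 over the alternatives). The 9 haematopoietic markers summed to 130 and 121.9 FPKM in A-LMSCs, 164 and 74.5 in PM-LMSCs and 390 and 280 in M-LMSCs, most of it Lyz2, while Ptprc (CD45) stayed under 0.1 FPKM in each library. The 11 epithelial markers summed to 3.74 to 7.01, 10.8 to 18.8 and 11.5 to 24.6 FPKM at the 3 stages, most of it Krt8 and Krt18. Epcam was at 0 in A-LMSCs and PM-LMSCs and at 0.326 and 0.473 FPKM in M-LMSCs. Cdh1, Krt14, Cldn3 and Cldn4, all under the floor, were likewise highest in both M-LMSC libraries, while Krt5, Sftpc, Sftpb and Nkx2-1 were not. The part of these cells in the Hox values was not tested. In such bulk samples fewer cells of a type and less RNA per cell cannot be told apart.

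The LMSCs read the anterior and middle parts of Hoxa and Hoxb, little of Hoxc and almost nothing of Hoxd. The floor for testing, an average of 1 FPKM or more across the 6 libraries, was met by 17 of the 39 genes: 7 of Hoxa, 8 of Hoxb, 2 of Hoxc and 0 of Hoxd. Of the 23 genes in groups 1 to 8, 16 met it, against 1 of the 16 genes in groups 9 to 13. The 39 genes summed to 127 and 138 FPKM in the A-LMSC libraries, 126 and 114 in PM-LMSCs and 115 and 109 in M-LMSCs, and Hoxa5 made up between 32.8% and 36.3% of that sum. On average Hoxa held 58.0% of the sum, Hoxb 39.1%, Hoxc 2.56% and Hoxd 0.318%. The Hoxd value rests on M-LMSC replicate 2, without which the mean Hoxd sum was 0.167 FPKM in place of 0.387 FPKM.

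**Figure D1:**
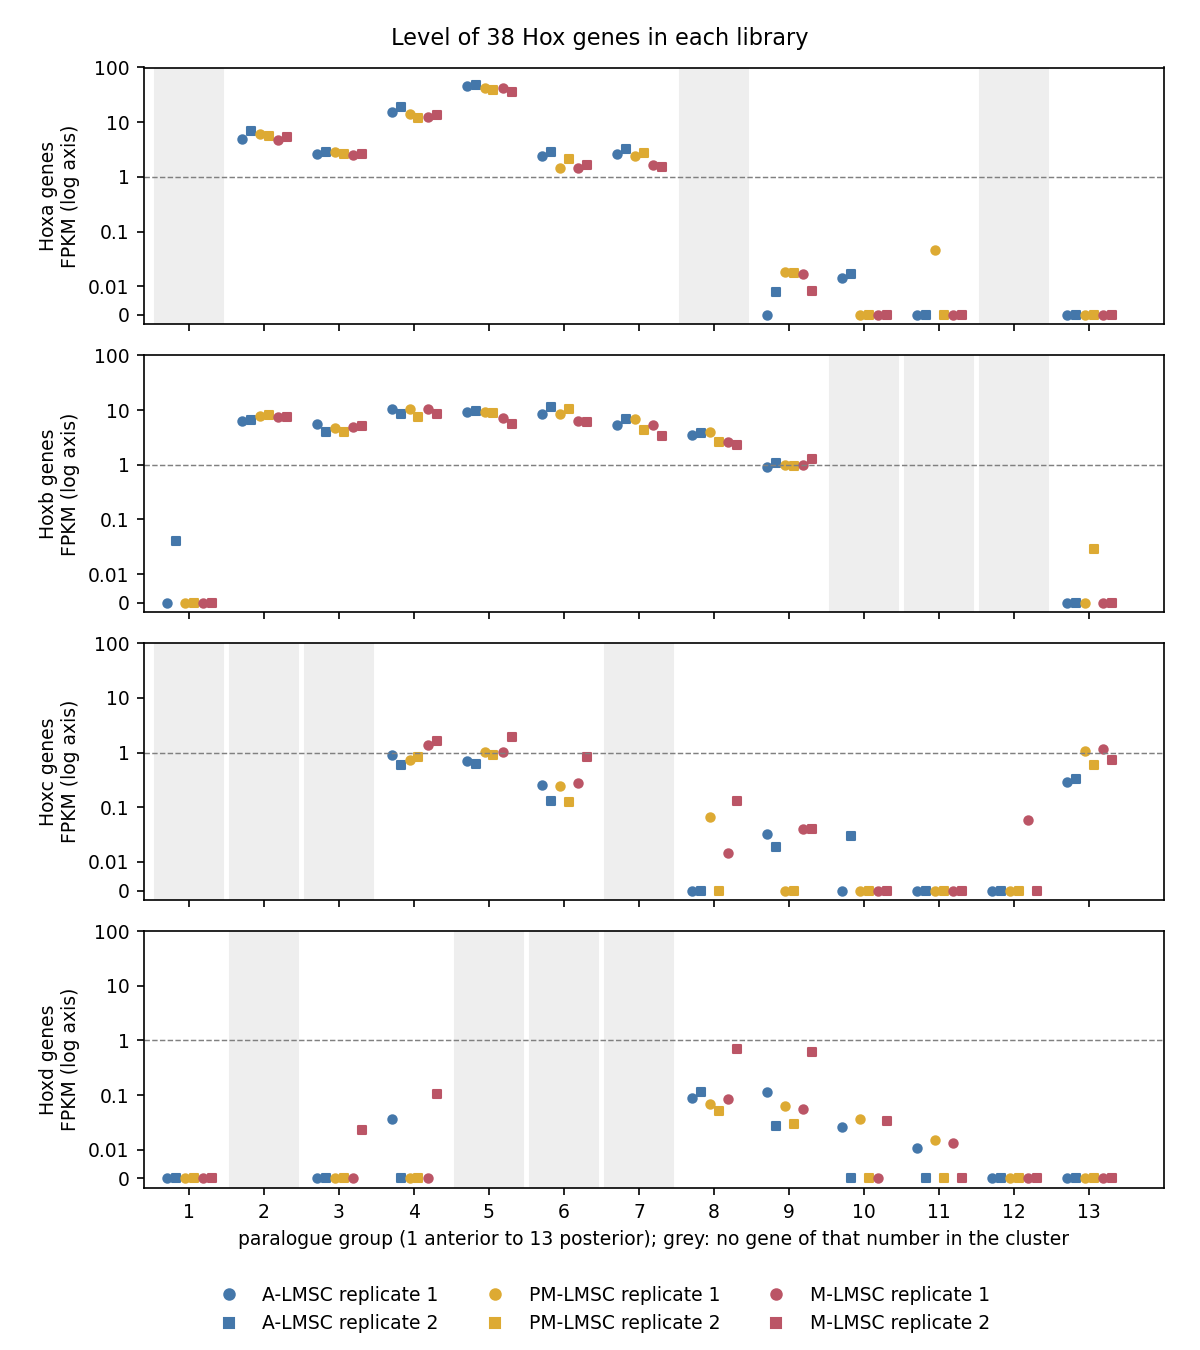
FPKM of 38 Hox genes in each of the 6 libraries (log axis, with libraries listed at 0 drawn at the foot), by cluster and paralogue group; the dashed line marks 1 FPKM, and grey bands mark groups with no gene in that cluster. Hoxa2 to Hoxa7 and Hoxb2 to Hoxb9 lie near or above the line in each library, while Hoxa9 to Hoxa13, Hoxb1, Hoxb13 and the Hoxd genes lie below it.

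By mean level over the 6 libraries the order began with Hoxa5 at 42.0 FPKM (36.2 to 48.0) and Hoxa4 at 14.3 FPKM (12.0 to 18.7), each apart from the gene after it in every library. Hoxb4 (9.29 FPKM), Hoxb6 (8.54), Hoxb5 (8.26), Hoxb2 (7.23), Hoxa2 (5.59), Hoxb7 (5.39) and Hoxb3 (4.69) came next, and neighbours in this stretch overlapped. Hoxb8 (3.12 FPKM), Hoxa3 (2.69), Hoxa7 (2.36) and Hoxa6 (1.99) formed a further run of overlapping neighbours, as did Hoxb9 (1.03), Hoxc5 (1.03) and Hoxc4 (1.01). Group 5 was the highest paralogue group, at 51.3 FPKM, or 42.2% of the Hox sum, followed by group 4 at 24.7 FPKM. Groups 10, 11 and 12 summed to 0.0263, 0.0143 and 0.00977 FPKM.

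The edges of the read stretches were steep. In Hoxa (chromosome 6, 52155590 to 52260880, minus strand, in the GENCODE annotation of GRCm38), Hoxa7 lay between 1.49 and 3.26 FPKM and its posterior neighbour Hoxa9 between 0 and 0.0185 FPKM, or at most about 1.5 fragments in a library, although the annotated genes lie 1.25 kb apart. Within the read stretch Hoxa5 stood 21.1-fold over Hoxa6, 1.70 kb away, so neighbours did not share a level. In Hoxb (chromosome 11, 96194316 to 96368256, plus strand) the anterior edge lay between Hoxb1, with 0.0398 FPKM in A-LMSC replicate 2 and 0 in the other 5 libraries, and Hoxb2, which lay between 6.25 and 7.97 FPKM. Its posterior edge lay between Hoxb9, at 0.919 to 1.26 FPKM, and Hoxb13, at 0.0285 FPKM (1 fragment) in PM-LMSC replicate 2 and 0 in the other 5 libraries, across a gap of 74.0 kb that holds no Hox gene.

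RefSeq promoter windows (GRCm38.p6, 250 bases before to 50 after a start) could be matched to 22 of the 39 genes, with 24 windows in all. The stretches upstream of 4 starts are printed on the strand of the gene. Hoxa5 is the highest Hox gene and Hoxa9 the first unread gene of that cluster. They are not neighbours, since Hoxa6 and Hoxa7 lie between them and the edge lies between Hoxa7 and Hoxa9. Hoxa2 and Hoxb8 are the tested genes whose windows hold the motif bound by Hox proteins together with Pbx. Each run has 120 bases, ends at the base before the RefSeq start and overlaps no GENCODE exon. They lie at chr6:52204588-52204707 (Hoxa5, minus strand), chr6:52227371-52227490 (Hoxa9, minus strand), chr6:52164832-52164951 (Hoxa2, minus strand) and chr11:96281785-96281904 (Hoxb8, plus strand). Capitals mark a TGATNNAT (the letters of the Pbx and Hox motif) or a TATAAA (the letters of a TATA box), on either strand and at any distance from the start. The TATAAA of Hoxb8 lies on the opposite strand, near the upstream end of its run.
Hoxa5: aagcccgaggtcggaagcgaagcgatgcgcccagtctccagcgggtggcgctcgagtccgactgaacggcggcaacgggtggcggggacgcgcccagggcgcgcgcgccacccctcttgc
Hoxa9: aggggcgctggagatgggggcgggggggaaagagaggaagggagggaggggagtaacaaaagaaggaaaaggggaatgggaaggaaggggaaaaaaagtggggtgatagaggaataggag
Hoxa2: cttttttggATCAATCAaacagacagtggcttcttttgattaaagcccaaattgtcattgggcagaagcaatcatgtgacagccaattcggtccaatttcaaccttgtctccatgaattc
Hoxb8: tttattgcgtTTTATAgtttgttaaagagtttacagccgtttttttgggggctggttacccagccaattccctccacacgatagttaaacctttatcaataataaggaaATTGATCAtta

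The Hoxa5 run holds 19 CpG dinucleotides and the Hoxa9 run 2. Hoxa7, which stands next to Hoxa9 at the edge, had 4 in a run of 112 bases ending 138 bases before its start. Over whole windows the order of read and unread genes was not the same, with a median of 13.5 CpGs for the tested Hox genes, 17.5 for the untested ones and 7 for the whole set of 32851 windows. TGATNNAT was found in 4 of the 24 Hox windows (16.7%), those of Hoxa2, Hoxb1, Hoxb8 and Hoxd11, and in 8.85% of all windows. TATAAA was found in 4 Hox windows (16.7%) against 13.6% of all, and TAATTA, the core of many homeodomain sites, which can share letters with TGATNNAT, in 2 (8.33%) against 5.29%. A match is a description of letters and not of binding.

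Between stages, 0 of the 17 tested Hox genes passed an adjusted p of 0.05 in limma (Benjamini-Hochberg over all 10279 genes), in any comparison. The background was as thin: PM-LMSCs against A-LMSCs gave 4 calls among 10279 genes (0.0389%), M-LMSCs against A-LMSCs 7 (0.0681%) and M-LMSCs against PM-LMSCs 3 (0.0292%). With the replicate number as a block, which pairs libraries of the same number, the calls over all genes were 30 (0.292%), 403 (3.92%) and 43 (0.418%), and 1 Hox gene, Hoxa7, was called, in M-LMSCs against A-LMSCs. The comparisons share libraries, so the counts for one are not independent of those for another.

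At an unadjusted p under 0.05, M-LMSCs against A-LMSCs gave 2 of 17 Hox genes higher (11.8%) and 5 lower (29.4%), beside 7.68% and 6.96% of all tested genes. The 2 higher ones, Hoxc4 and Hoxc5, met the floor of 1 FPKM only through M-LMSCs. Their means were 0.737 and 0.661 FPKM in A-LMSCs, 0.777 and 0.952 in PM-LMSCs and 1.51 and 1.47 in M-LMSCs. The upward counts for M-LMSCs that hold these genes are therefore not independent of the filter. Both M-LMSC libraries lay below both A-LMSC libraries in 9 of the 17 Hox genes (52.9%; background 24.4%) and above them in 3 (17.6%; background 27.1%). The median log2 fold change was -0.19 over the 17 Hox genes and 0.03 over all tested genes. For PM-LMSCs against A-LMSCs, 0 Hox genes were higher (background 3.92%) and 1, Hoxa6, was lower (5.88%; background 2.61%) at an unadjusted p under 0.05, and the stages stood apart upward in 2 (11.8%; background 19.6%) and downward in 4 (23.5%; background 19.7%). For M-LMSCs against PM-LMSCs, 1 was higher (5.88%; background 4.48%) and 3 were lower (17.6%; background 4.46%), and the stages stood apart upward in 3 (17.6%; background 17.8%) and downward in 6 (35.3%; background 16.7%). The medians of the Hox genes in these 2 comparisons were -0.07 and -0.08, and those of all tested genes 0.01 and -0.00.

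**Figure D2:**
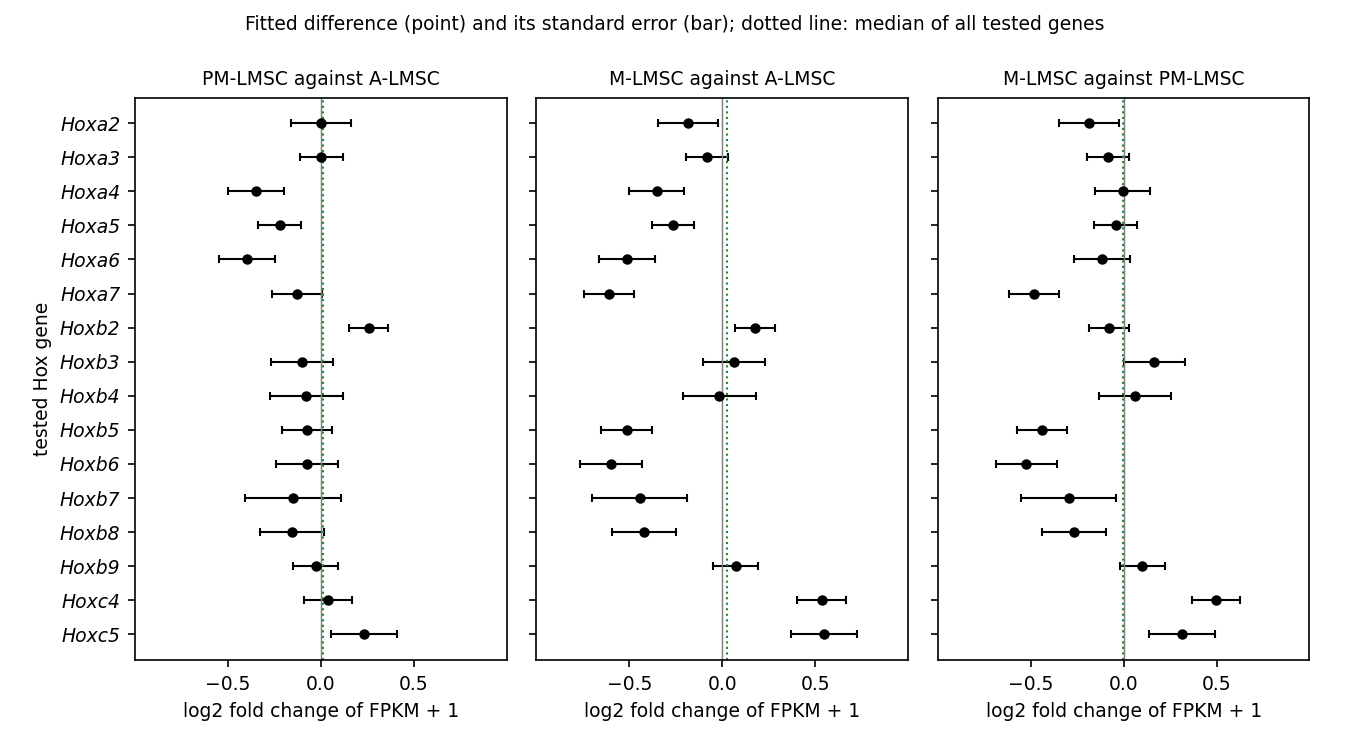
Fitted log2 fold change of FPKM + 1 (point) with its standard error (bar) for 16 tested Hox genes in the 3 comparisons of stages; the dotted line is the median of all tested genes. In M-LMSCs against A-LMSCs Hoxa4 to Hoxa7 and Hoxb5 to Hoxb8 lie to the left of 0 and Hoxc4 and Hoxc5 to the right, and 0 of the points passed the adjusted p of 0.05.

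The tested genes were also split by paralogue number, at cuts chosen after the values were seen, so the split only describes those values. Of the 8 tested genes in groups 5 to 8, 7 had both M-LMSC libraries below both A-LMSC libraries (background 24.4%), with a median log2 fold change of -0.48, and Hoxc5 was the exception. Of the 8 tested genes in groups 1 to 4, 2 stood apart downward and 2 upward (background 24.4% and 27.1%), with a median of 0.02. The downward ones were Hoxa3 and Hoxa4, and the upward ones Hoxb2 and Hoxc4. Hoxb9 (0.07) fell in neither range. Hoxc4 and Hoxc5 were both higher though they fell in different ranges, and genes of a cluster need not be independent. Both also met the floor only through M-LMSCs.

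In the Hoxa cluster the lower values of the later stages lay in groups 4 to 7. Hoxa2, which sets the identity of the hyoid arch, read 4.92 and 6.89 FPKM in A-LMSCs, 5.98 and 5.71 in PM-LMSCs and 4.77 and 5.26 in M-LMSCs. Its A-LMSC and M-LMSC libraries overlapped.

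Hoxa3, needed for the thymus and parathyroid, read 2.65 and 2.86 FPKM in A-LMSCs, 2.91 and 2.63 in PM-LMSCs and 2.49 and 2.61 in M-LMSCs, with both M-LMSC libraries just below both A-LMSC ones, at a log2 fold change of -0.08 (standard error, SE, 0.11). Hoxa4, which patterns cervical vertebrae, read 15.2 and 18.7 FPKM in A-LMSCs, 14.1 and 12.0 in PM-LMSCs and 12.2 and 13.8 in M-LMSCs. Both A-LMSC libraries lay above the 4 later ones, at a log2 fold change of -0.35 (SE 0.15, adjusted p = 0.342) for M-LMSCs against A-LMSCs. Hoxa4 shares 255 exon bases with the antisense gene Gm29430.

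Hoxa5, the gene of this family best known in lung development, read 45.9 and 48.0 FPKM in A-LMSCs, 41.5 and 38.8 in PM-LMSCs and 41.8 and 36.2 in M-LMSCs. It was the highest Hox gene in each library, and both A-LMSC libraries lay above the 4 later ones. The difference was small, with a log2 fold change of -0.22 (SE 0.12, adjusted p = 0.838) in PM-LMSCs and -0.26 (SE 0.12, adjusted p = 0.355) in M-LMSCs against A-LMSCs. With about 1127 to 1797 fragments per library it was also the most deeply read of the family.

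Hoxa6, a thoracic patterning gene, read 2.41 and 2.88 FPKM in A-LMSCs, 1.47 and 2.09 in PM-LMSCs and 1.45 and 1.66 in M-LMSCs. Again the A-LMSC libraries were the highest, by -0.40 (SE 0.15, adjusted p = 0.691) for PM-LMSCs and -0.51 (SE 0.15, adjusted p = 0.216) for M-LMSCs on the log2 scale. These values rest on about 19 to 44 fragments.

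Hoxa7, of the same thoracic genes, read 2.60 and 3.26 FPKM in A-LMSCs, 2.40 and 2.77 in PM-LMSCs and 1.64 and 1.49 in M-LMSCs. Its M-LMSC libraries lay below the other 4, and the mean of A-LMSCs was 1.87 times that of M-LMSCs. The log2 fold change was -0.61 (SE 0.13, adjusted p = 0.130) against A-LMSCs and -0.48 (SE 0.13, adjusted p = 0.394) against PM-LMSCs. With the replicate block the adjusted p of the former was 0.0447, past the threshold, and over the alternatives it ranged from 0.0447 to 0.753. The antisense gene Hoxaas3 shares 20.4% of the exon bases of Hoxa7, and it read between 0.0809 and 0.256 FPKM.

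**Figure D3:**
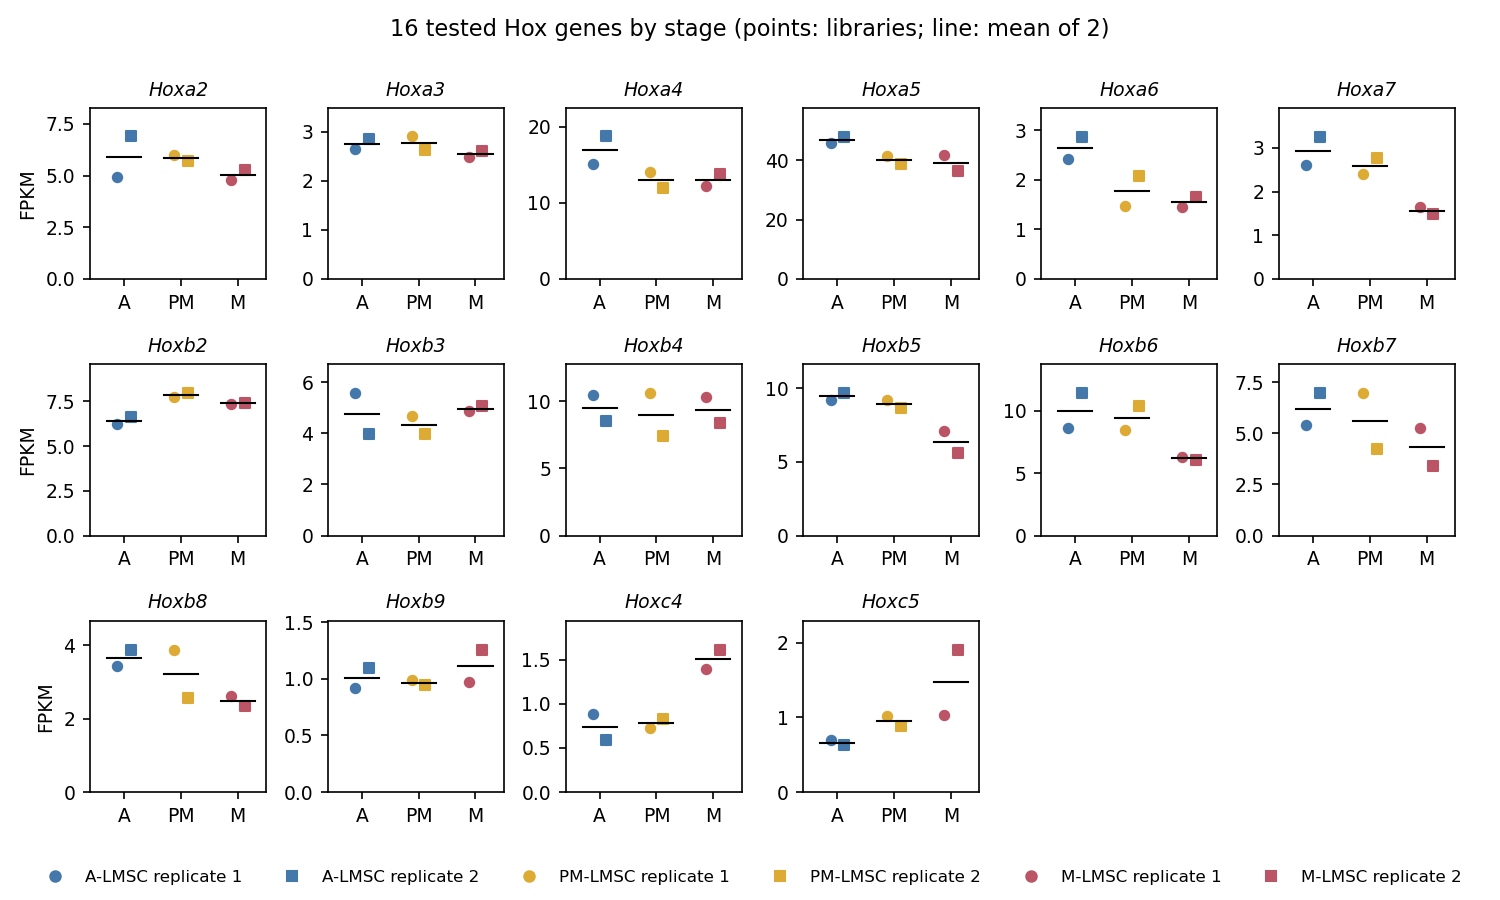
FPKM of 16 tested Hox genes by stage (A, PM and M stand for A-LMSCs, PM-LMSCs and M-LMSCs); circles are replicate 1, squares replicate 2 and lines the mean of 2 libraries, and each panel has its own axis from 0. The M-LMSC points of Hoxa7, Hoxb5 and Hoxb6 lie below the other 4, and those of Hoxc4 and Hoxc5 above them.

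In the Hoxb cluster the lower M-LMSC values lay in groups 5 to 8. Hoxb2, a regulator of facial nerve patterning, read 6.25 and 6.61 FPKM in A-LMSCs, 7.77 and 7.97 in PM-LMSCs and 7.36 and 7.43 in M-LMSCs. The A-LMSC libraries were the lowest, by 0.26 (SE 0.11, adjusted p = 0.766) against PM-LMSCs and 0.18 (SE 0.11, adjusted p = 0.470) against M-LMSCs on the log2 scale. Hoxb3, a hindbrain gene, read 5.58 and 3.95, then 4.69 and 3.98, then 4.85 and 5.08 FPKM, with the A-LMSC libraries at both ends of the M-LMSC range.

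The antisense gene Hoxb3os shares 52.9% of the exon bases of Hoxb3 and 27.3% of those of Hoxb2, and it was listed at 0.203 to 0.577 FPKM. Hoxb4, known for expanding blood stem cells when overexpressed, read 10.5 and 8.51 FPKM in A-LMSCs, 10.6 and 7.41 in PM-LMSCs and 10.3 and 8.39 in M-LMSCs. Replicate 1 was higher than replicate 2 at each stage, and the stages overlapped.

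Hoxb5, which acts in branching of the lung airway, read 9.24 and 9.69 FPKM in A-LMSCs, 9.19 and 8.69 in PM-LMSCs and 7.13 and 5.60 in M-LMSCs. Its M-LMSC libraries lay below the other 4, by -0.51 (SE 0.14, adjusted p = 0.176) against A-LMSCs and -0.44 (SE 0.14, adjusted p = 0.426) against PM-LMSCs. Hoxb6, a marker of lateral plate mesoderm, read 8.59 and 11.4 FPKM in A-LMSCs, 8.45 and 10.4 in PM-LMSCs and 6.33 and 6.09 in M-LMSCs. It too was lowest in the M-LMSC libraries, by -0.60 (SE 0.16, adjusted p = 0.194) and -0.52 (SE 0.16, adjusted p = 0.428).

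Hoxb7, a thoracic gene, read 5.43 and 6.98 FPKM in A-LMSCs, 6.97 and 4.24 in PM-LMSCs and 5.28 and 3.41 in M-LMSCs, with both M-LMSC libraries below both A-LMSC ones (-0.45, SE 0.26, adjusted p = 0.455) and a wide gap between the libraries of PM-LMSCs. Hoxb8, a gene of thoracic and myeloid cells, read 3.42 and 3.87 FPKM in A-LMSCs, 3.89 and 2.57 in PM-LMSCs and 2.61 and 2.33 in M-LMSCs. The M-LMSC libraries of Hoxb8 lay below the A-LMSC ones (-0.42, SE 0.17, adjusted p = 0.336). Hoxb9, which helps to pattern the ribs and is the most posterior gene that met the floor, read 0.919 and 1.09 FPKM in A-LMSCs, 0.990 and 0.943 in PM-LMSCs and 0.968 and 1.26 in M-LMSCs, with the stages overlapping.

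Ratios of genes of a cluster within a library do not depend on how libraries were scaled, and these were chosen after the values were seen. Hoxb6 over Hoxb2 was 1.38 and 1.73 in A-LMSCs, 1.09 and 1.30 in PM-LMSCs and 0.860 and 0.820 in M-LMSCs. Hoxb5 over Hoxb2 was 1.48 and 1.47, then 1.18 and 1.09, then 0.968 and 0.754. In both ratios the 3 stages did not overlap, and Hoxb2 passed from the lower to the higher gene of the pair. M-LMSCs already stood apart from A-LMSCs upward in Hoxb2 and downward in Hoxb5 and Hoxb6. Those stages therefore could not overlap in the ratios. PM-LMSCs likewise stood apart from A-LMSCs upward in Hoxb2 and downward in Hoxb5. PM-LMSCs and A-LMSCs therefore could not overlap in Hoxb5 over Hoxb2 either. The ratio of Hoxa7 to Hoxa3 was 0.980 and 1.14 in A-LMSCs, 0.826 and 1.05 in PM-LMSCs and 0.660 and 0.570 in M-LMSCs, so that the first of these stages overlapped and M-LMSCs lay below both.

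The Hoxc cluster (chromosome 15, 102921103 to 103036852, plus strand) was read at a low level and stood higher at the later stages. Its 9 genes summed to 2.16 and 1.72 FPKM in A-LMSCs, 3.12 and 2.43 in PM-LMSCs and 3.97 and 5.27 in M-LMSCs, and the 3 stages did not overlap. The sums of Hoxa went the other way, at 75.1 and 83.9 FPKM at the adenoma stage, 70.4 and 65.4 at the pre-metastatic stage and 66.0 and 62.4 at the metastatic stage. Those of Hoxb were 49.9 and 52.2, then 52.6 and 46.2, then 44.9 and 39.6 FPKM.

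Hoxc4, a gene of the cervical and upper thoracic axis, read 0.888 and 0.585 FPKM in A-LMSCs, 0.725 and 0.828 in PM-LMSCs and 1.40 and 1.62 in M-LMSCs. Both M-LMSC libraries lay above the other 4, by 0.53 (SE 0.13, adjusted p = 0.151) against A-LMSCs and 0.50 (SE 0.13, adjusted p = 0.359) against PM-LMSCs. Hoxc5, its neighbour with the same axial range, read 0.691 and 0.630 FPKM in A-LMSCs, 1.01 and 0.890 in PM-LMSCs and 1.03 and 1.91 in M-LMSCs. The M-LMSC libraries were again the highest (0.55, SE 0.18, adjusted p = 0.247 against A-LMSCs), with M-LMSC replicate 1 just above PM-LMSC replicate 1. Both genes met the floor for testing only through M-LMSCs, so their place among the tested genes depends on the stage where they were high. Since both genes average about 1 FPKM, the added pseudocount shrinks these fold changes. The ratios of the mean FPKM of M-LMSCs over A-LMSCs were 2.05 and 2.22.

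Hoxc13, which shapes hair and nails, was the only gene of groups 10 to 13 above 0.15 FPKM. It averaged 0.695 FPKM, under the floor for testing, with 0.292 and 0.325 FPKM in A-LMSCs, 1.07 and 0.588 in PM-LMSCs and 1.15 and 0.735 in M-LMSCs. The 4 later libraries lay above both A-LMSC libraries. The estimated fragments were 15 and 14 in A-LMSCs, 39 and 23 in PM-LMSCs and 47 and 30 in M-LMSCs, and the exact 95% Poisson intervals of the A-LMSC libraries reached up to 24.7 and 23.5, beyond the lower bounds of replicate 2 in PM-LMSCs (14.6) and in M-LMSCs (20.2). No p is given, because the gene did not meet the floor. The genes between it and Hoxc9 were nearly unread: Hoxc12 had 0.0586 FPKM in M-LMSC replicate 1 and 0 elsewhere, Hoxc11 was at 0 in all, and Hoxc10 had 0.0299 FPKM in A-LMSC replicate 2 and 0 elsewhere.

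A set of low genes was set apart by M-LMSC replicate 2 alone. Hoxd8, of the trunk, read 0.0872 and 0.115 FPKM in A-LMSCs, 0.0684 and 0.0509 in PM-LMSCs, 0.0855 in M-LMSC replicate 1 and 0.706 in M-LMSC replicate 2. Hoxd9, which patterns the lumbosacral axis and upper limb, read 0.112 and 0.0268, then 0.0634 and 0.0295, then 0.0566 and 0.621 FPKM. Hoxc6, a thoracic gene, read 0.255 and 0.133, then 0.247 and 0.125, then 0.281 and 0.840 FPKM.

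In fragments, this library held an estimated 32 of Hoxd8 (interval 21.9 to 45.2), 22 of Hoxd9 (13.8 to 33.3) and 34 of Hoxc6 (23.6 to 47.5). The most in any other library were 6, 5 and 13, and their intervals ended at 13.1, 11.7 and 22.2, below those of M-LMSC replicate 2. Hoxc8 and Hoxd4 had their highest values there too, at 0.133 and 0.103 FPKM, but with 6 and 5 fragments their intervals overlapped those of other libraries. Apart from Hoxd9, these genes had estimates that were not whole numbers before rounding, such as 5.54 for Hoxd8 in A-LMSC replicate 2. Their true fragment numbers are not known, so their counts and intervals are approximate. The Hoxd sum of M-LMSCs was accordingly 0.156 FPKM in replicate 1 and 1.49 FPKM in replicate 2, against 0.0803 to 0.273 FPKM in the other 4 libraries, so a mean over the stage describes neither library.

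**Figure D4:**
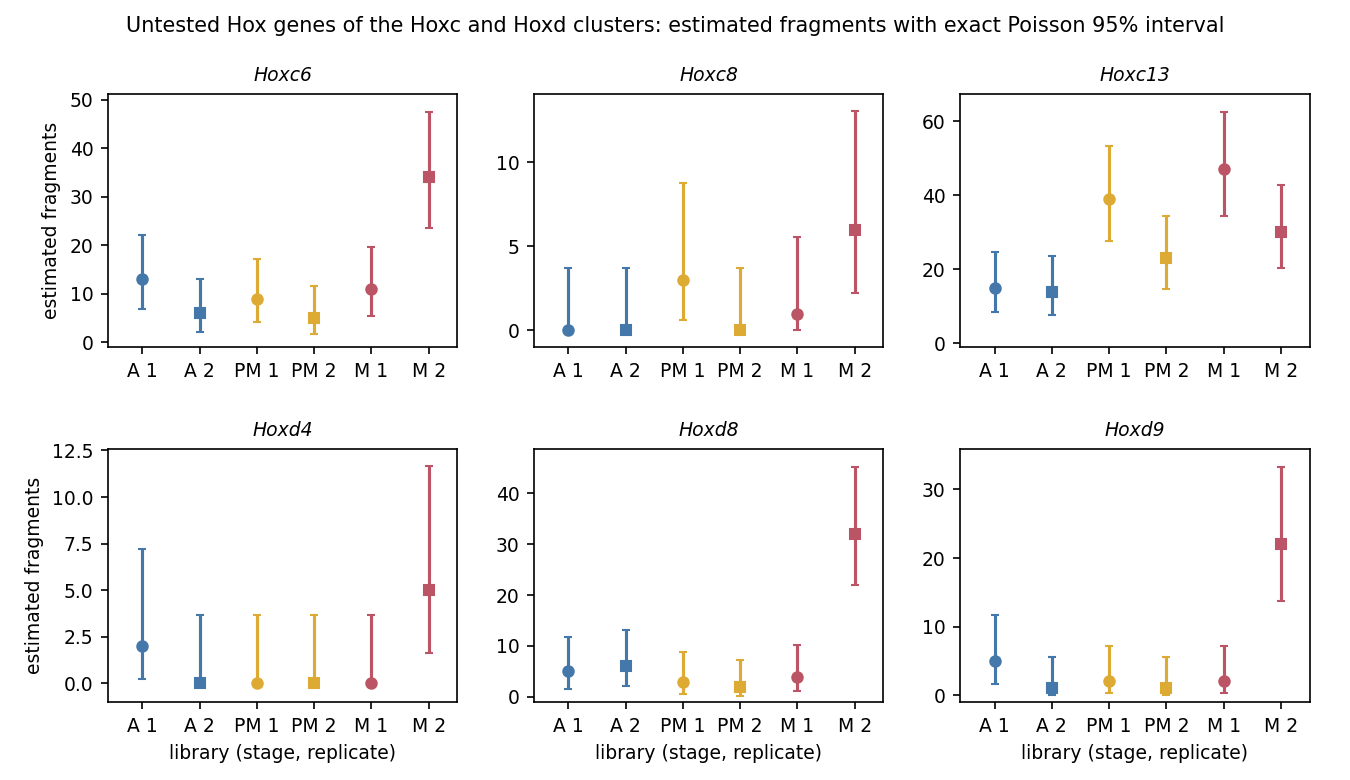
Estimated fragments (point) with exact Poisson 95% interval (bar) for 6 Hox genes of the Hoxc and Hoxd clusters under the floor for testing, in each library (A, PM and M stand for the stages, 1 and 2 for the replicate). Estimates were rounded first, and those of Hoxc6, Hoxc8, Hoxd4 and Hoxd8 were not whole numbers, so their points and intervals are approximate. Hoxc6, Hoxd8 and Hoxd9 stand at 34, 32 and 22 fragments in M-LMSC replicate 2 and at no more than 13 elsewhere, while Hoxc13 lies lowest in both A-LMSC libraries.

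The other untested Hox genes were at or near 0. Hoxa13, Hoxc11, Hoxd1, Hoxd12 and Hoxd13 were listed at 0 in all 6 libraries, where 3 fragments would have given between 0.0568 and 0.109 FPKM. A further 13 genes stayed under 0.15 FPKM in every library, with at most about 6 fragments in any library: Hoxa9, Hoxa10 and Hoxa11, of the limbs and the reproductive tract, Hoxb1, of the hindbrain, Hoxb13, of the prostate and hindgut, Hoxc8, Hoxc9, Hoxc10 and Hoxc12, and Hoxd3, Hoxd4, Hoxd10 and Hoxd11. No difference between stages was detectable at this depth for these genes. Hoxd3 and Hoxd4 share 388 exon bases with each other on one strand, so their reads could be split between them.

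Of 22 other genes annotated inside the clusters and present in the table, which include antisense and read-through genes, 3 were tested and 7 were at 0 throughout. Hoxb5os, antisense to Hoxb5, with which it shares 100 exon bases, read 12.5 and 10.9 FPKM in A-LMSCs, 9.24 and 10.2 in PM-LMSCs and 8.18 and 6.95 in M-LMSCs. It was lowest in M-LMSCs, as Hoxb5 was, at a log2 fold change of -0.57 against A-LMSCs (SE 0.13, adjusted p = 0.142). Hotairm1, at the anterior end of Hoxa, lay between 1.99 and 2.75 FPKM, and Gm15050 between 2.28 and 3.04 FPKM. Hotair, which lies in the posterior part of Hoxc, was at 0 in each library. How strand was treated in counting is not given in the sources used here, so reads of a Hox gene and its antisense partner cannot be told apart where they overlap.

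The partners that bind DNA with Hox proteins were present at each stage. Of the 9 TALE homeodomain genes listed, 7 were tested, and 0 passed the adjusted p of 0.05 in any comparison. Among the highest by mean were Meis3 at 3.63 to 5.60 FPKM, Pbx2 at 3.79 to 4.65 and Pknox1 at 1.56 to 2.38. Meis2 read 1.05 and 0.984 FPKM in A-LMSCs, 1.28 and 1.18 in PM-LMSCs and 1.62 and 1.35 in M-LMSCs, with the stages apart and an adjusted p of 0.304 for M-LMSCs against A-LMSCs.

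Polycomb proteins keep Hox genes silent and Trithorax proteins keep them open. Of 16 Polycomb genes 12 were tested and 0 passed in any comparison. The 4 highest by mean were Phc2, a subunit of the Polycomb repressive complex that carries ubiquitin ligase activity (12.7 to 19.6 FPKM), Eed, a core subunit of the methyltransferase complex (6.49 to 11.3), Ring1 (3.12 to 4.75), a ubiquitin ligase, and Bmi1 (3.02 to 5.57), its partner. Phc2 was lowest in the M-LMSC libraries, at 12.7 and 15.4 FPKM, with a log2 fold change of -0.36 against A-LMSCs (SE 0.13, adjusted p = 0.286). Of 10 Trithorax and H3K27 demethylase genes 10 were tested and 0 passed. They were led by Wdr5 (12.9 to 17.03 FPKM) and Dpy30 (10.6 to 13.1), shared subunits of the H3K4 methyltransferases, Kdm6b (5.71 to 7.25), an H3K27 demethylase, and Men1 (4.01 to 5.07), another subunit. The median log2 fold changes for M-LMSCs against A-LMSCs were 0.04 over the tested TALE genes, -0.10 over the Polycomb genes and -0.05 over the Trithorax and demethylase genes, beside 0.03 over all tested genes.

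The Cdx genes, which open the posterior Hox genes in the embryo, and the ParaHox genes were not read. Of 6 listed, 5 were at 0 in all libraries and Cdx1 had 0.0691 FPKM in M-LMSC replicate 1.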

How the data were processed

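The authors deposited 1 table of FPKM values, that is, fragment numbers scaled to the length of each gene and the size of each library, for 34745 genes in 6 libraries. The submitters' processing notes name TopHat2 2.0.9 and the build mm10; the counter, annotation and strand setting are not given in the sources used here. Columns were matched to stage and replicate by the labels, and 0 columns of other samples were present. Depth was estimated from the spacing of low values in genes with 1 transcript, of which between 96.6% and 97.0% lay within 0.1 of a whole fragment; fragments of a gene follow from depth and exon length and are approximate for genes with several transcripts. Coordinates are those of GENCODE M21 on GRCm38, which held all 39 Hox genes.

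The 10279 genes that averaged 1 FPKM or more were fitted as log2(FPKM + 1) in R 4.3.3 with limma 3.58.1 (lmFit, eBayes with a trend), with 1 mean per stage, and p-values were adjusted over all of them by the Benjamini-Hochberg method. A fold change on this scale understates that of low genes. The script was tested on simulated data. Deviations of libraries with the same number were correlated between stages at 0.238, 0.307 and 0.491, so same-numbered libraries deviated together, although the labels give the numbers alone. Values come from the fit without the pairing unless the replicate block is named. The fit with the block is given where it changed calls of Hox genes or the calls over all genes at the adjusted p. For the other lists its changes are not all given. It called further markers, with 6 of the 7 mesothelial ones past the adjusted p in M-LMSCs against A-LMSCs. Tested and untested members are both described, in order of cluster and paralogue number; of the other lists, genes past the threshold and the 4 highest by mean are named, and other names were chosen after values were seen. Some items under these rules are not reported here by name, though counts, sums and medians include them. The members and lists were chosen with earlier results of these data known. Alternatives were a pseudocount of 0.1, no filter, quantile normalization, median centering, the 2 stages alone, the replicate block and each library left out. Sums per cluster and paralogue group were not tested. Python 3.11.15 with pandas 2.3.3, scipy 1.17.1 and matplotlib 3.10.9 gave levels, intervals and figures.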

Additional observations from a re-analysis of the deposited data

How the results depend on the processing

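The count of 0 called Hox genes held under each alternative run in each comparison, but for the replicate block, which called 1 (Hoxa7) in M-LMSCs against A-LMSCs and changed no other Hox call. Counts over all genes moved more. For PM-LMSCs against A-LMSCs they were 30 with the replicate block, 21 with only the 2 stages and 1 with no filter, and 1 to 28 with 1 library left out. For M-LMSCs against A-LMSCs they were 403, 1 and 3, and 1 to 90 with 1 library left out. For M-LMSCs against PM-LMSCs they were 43 with the replicate block and 2 to 25 with 1 library left out, the rest staying within 1.5 times. Among the fits with 1 library left out, the highest counts in PM-LMSCs against A-LMSCs came without an M-LMSC library (28 without replicate 1, 26 without replicate 2), in M-LMSCs against A-LMSCs likewise (85 and 90) and in M-LMSCs against PM-LMSCs too (18 and 25), and the cause was not tested. A stage left with 1 library was assumed to vary like the others, and the genes of the full fit were kept.

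Of 576 alternative values of 48 Hox fold changes, 34 had the opposite sign, all in 18 fold changes of at most 0.30 on the log2 scale. Several alternatives return the main fold change by design and could not reverse a sign. These were no filter, the replicate block, the compared stages alone and a library left out of the stage not compared. The share of reversed values therefore understates how readily the signs change. Of the 34, 28 came with 1 library left out. For PM-LMSCs against A-LMSCs, quantile normalization gave -0.019 for Hoxa2, -0.046 for Hoxa3 and -0.017 for Hoxc4, and centering on the median gave -0.028 for Hoxa2 and -0.028 for Hoxa3. With 1 library left out the ranges there were -0.20 to 0.21 for Hoxa2, -0.051 to 0.057 for Hoxa3, -0.30 to 0.10 for Hoxb3, -0.31 to 0.16 for Hoxb4, -0.26 to 0.11 for Hoxb6, -0.45 to 0.15 for Hoxb7, -0.38 to 0.073 for Hoxb8, -0.091 to 0.035 for Hoxb9 and -0.088 to 0.16 for Hoxc4. For M-LMSCs against A-LMSCs they were -0.39 to 0.022 for Hoxa2, -0.14 to 0.27 for Hoxb3, -0.15 to 0.12 for Hoxb4 and -0.026 to 0.17 for Hoxb9. For M-LMSCs against PM-LMSCs they were -0.11 to 0.10 for Hoxa4 (0.017 with quantile normalization), -0.14 to 0.057 for Hoxa5, -0.28 to 0.046 for Hoxa6, -0.17 to 0.30 for Hoxb4 and -0.60 to 0.0048 for Hoxb7.

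The sums of the 4 clusters and 13 paralogue groups moved by less than their spread over the libraries in 119 of 119 alternative values. Where a library was left out, this result was fixed in advance, because dropping a library always moves the mean by less than that spread. Those values therefore cannot show whether the sums are stable. Without M-LMSC replicate 2 the mean Hoxd sum was 0.167 FPKM in place of 0.387 FPKM. Genes under 1 FPKM rest on few fragments, and 2 libraries per stage limit the precision of every comparison.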

Other observations

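Of 34 other transcription factors that mark body position, 13 were tested and 0 passed the adjusted p of 0.05 in limma, in any comparison of stages, or with the replicate block. At an unadjusted p under 0.05, 1 of the 13 was higher and 1 lower in M-LMSCs against A-LMSCs, near the background of 7.68% and 6.96% of all tested genes, and 0 in the other comparisons. The 4 highest by mean were Foxf1, a gene of lung and gut mesenchyme, at 16.9 to 20.3 FPKM, Prrx1 and Prrx2, of limb and craniofacial mesenchyme, at 13.6 to 19.97 and 10.7 to 19.0 FPKM, and Foxf2 at 9.96 to 13.5 FPKM. Tbx4 and Tbx5, which act together in the lung mesenchyme, lay at 1.06 to 2.32 and 3.997 to 4.75 FPKM.

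Tbx4, named after its values were seen, read 2.32 and 2.24 FPKM in A-LMSCs, 1.94 and 1.88 in PM-LMSCs and 1.06 and 1.59 in M-LMSCs, and the 3 stages did not overlap. Its log2 fold change for M-LMSCs against A-LMSCs was -0.50 (adjusted p = 0.194). Emx2, a gene of the urogenital system and forebrain, also named after its values were seen, read 2.00 and 1.93, then 2.22 and 2.65, then 3.12 and 2.83 FPKM (0.42, adjusted p = 0.210).

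The library that set Hoxd8, Hoxd9 and Hoxc6 apart, M-LMSC replicate 2, also had the highest level of 4 other positional genes under the floor for testing, chosen after their values were seen. Lhx2 read 0.948 FPKM there and at most 0.0428 FPKM in the other 5 libraries. Hand2 read 1.29 FPKM against at most 0.3005, Irx3 1.18 against at most 0.597, and Irx5 0.953 against at most 0.439. This library also had the highest sums of the fibroblast or stromal (3231 FPKM), mesothelial (501 FPKM) and epithelial (24.6 FPKM) markers of the 6, and their part in these values was not tested.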
